A study of Homo sapiens with 12 samples.

Results

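The regions described here were stretches of the human genome that carried an ATAC-seq peak in all 4 libraries expressing FOXA2, with or without its C-terminal domain (CTD), and in none of the other lists of the study. The peaks of all 9 deposited lists on chromosomes 1 to 22 and X were merged wherever they overlapped by at least 1 bp. A merged region was a member when both full-length FOXA2 lists and both CTD deletion lists had a peak in it and the other 5 lists had none. There were 6105 members among 399183 merged regions, 1.53% of them. The members were chosen by the presence and absence of peaks in these lists, so that pattern is a description and no test is attached to it.

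ATAC-seq marks open chromatin by the places where the Tn5 transposase can insert adapters. The study measured it in U2OS, a human osteosarcoma cell line, in 12 samples that form 6 groups of 2 biological replicates. The genotypes of the FOXA2 groups were Tet-on FOXA2 (the full-length protein) and Tet-on FOXA2dCTD (the protein without its CTD), both given doxycycline at 500 ng/ml for 4 days to switch on the construct. They are set beside a pair of libraries labelled wild type. A SOX2 set used the same dose and time for Tet-on SOX2 and for Tet-on SOX2FOXA2CTD (SOX2 joined to the FOXA2 CTD), and had a wild type of its own. The genotype and treatment fields of both wild types read NA while the shared protocol text names doxycycline, so whether wild-type cells received it is not known. Each library of the FOXA2 set had its own peak list, and each group of the SOX2 set had a single list in the layout of a reproducibility (IDR) comparison, taken to be made from both samples. Whether each Tet-on line is a single clone, and how much protein each construct made, is not given in the sources used here.

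FOXA2 is a forkhead transcription factor of the endoderm, liver, pancreas and lung. Its winged-helix DNA-binding domain can bind its motif on nucleosomal DNA, for which FOXA proteins are called pioneer factors, and the CTD is a separate part of the protein that has been tied to transcriptional activation and to contact with histones. U2OS cells are of mesenchymal origin, so an induced FOXA2 meets a genome in which most endodermal enhancers are not in use.

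The sequences that could be read for member regions were promoter windows of RefSeq (GRCh38.p14, the build of the hg38 peak lists), each running from 250 bases before a gene start to 50 bases after it. Members overlapped 22 of 34961 such windows, belonging to 21 genes in 20 regions. Each motif was searched by its letters on both strands. Any of 4 spellings of the forkhead core stood in 7 of these 22 windows, 31.8%, against 13.1% of all windows. In other classes it was 2 of 6 windows in full-length-only regions, 2 of 9 in CTD-deletion-only regions, 6 of 24 in regions of 3 construct lists and 7.22% of the 6925 windows in regions called in all 9 lists. Its share depended on the rule: 0 of 6 windows held a core with a common −log10 p threshold, 0 of 3 with equal numbers of peaks per list and 119 of 1338 (8.89%) without the SOX2 set, all below the share of all windows. The spelling TGTTTAT was in 6 of them (27.3% against 4.23%), TGTTTAC in 1 (4.55% against 3.42%), TATTTAC in 1 (4.55% against 2.67%) and TGTTTGC in 0 (3.88% of all windows). Whole windows were searched, although members covered only part of some of them. In the windows of LINC01435 and LOC102724553 the part inside the member held no core. The window of LOC102724553 held the only TGTTTAC, and TGTTTAT as well. The windows that members overlapped were poor in G and C, with a median of 38.2% GC against 58.7% over all windows. Other AT-rich letters were more frequent in these windows too: the first core spelled backwards, CATTTGT, was in 9.09% against 3.73%. The SOX core AACAATG was in 22.7% against 3.31% and can overlap the forkhead core, the AP-1 site TGACTCA in 18.2% against 4.92%, the TEAD site GGAATG in 31.8% against 14.0%, and the RUNX site AACCACA in 9.09% against 4.28%. The GATA core AGATAAG (2.67% of all windows) and the letters AGGTGGC of the CTCF motif (6.73%) were in none of the 22. These are matches of letters anywhere in 22 windows, given as a description. Among them, the GGAATG of CNR1 and of LINC01435 and the CATTTGT of LINC00901 were not in the part inside the member.

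The 5 promoter windows in which a forkhead core lay inside the member region and before the gene start are printed to show where its letters stand. The samples are ATAC-seq only, so binding of FOXA2 to these letters was not measured. Each sequence is the part of the window inside the member and before the gene start. It runs 5′ to 3′ in the direction of the gene, with the forkhead core of either strand in capitals.
ZBTB20 (chr3:114759108-114759357, minus strand): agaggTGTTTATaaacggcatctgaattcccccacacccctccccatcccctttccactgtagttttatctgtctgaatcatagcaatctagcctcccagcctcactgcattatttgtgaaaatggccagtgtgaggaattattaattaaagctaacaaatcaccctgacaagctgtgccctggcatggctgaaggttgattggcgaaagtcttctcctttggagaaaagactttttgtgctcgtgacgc
SEM1 (chr7:96664339-96664464, minus strand): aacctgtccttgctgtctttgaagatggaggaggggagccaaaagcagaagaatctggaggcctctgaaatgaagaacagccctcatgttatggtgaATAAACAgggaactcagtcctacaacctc
LOC112267888 (chr2:17849487-17849733, minus strand): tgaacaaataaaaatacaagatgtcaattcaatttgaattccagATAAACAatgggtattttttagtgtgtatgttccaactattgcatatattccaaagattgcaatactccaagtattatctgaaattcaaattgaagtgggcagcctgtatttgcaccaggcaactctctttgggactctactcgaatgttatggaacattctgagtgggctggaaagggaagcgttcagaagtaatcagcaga
LINC01992 (chr17:27991708-27991957, minus strand): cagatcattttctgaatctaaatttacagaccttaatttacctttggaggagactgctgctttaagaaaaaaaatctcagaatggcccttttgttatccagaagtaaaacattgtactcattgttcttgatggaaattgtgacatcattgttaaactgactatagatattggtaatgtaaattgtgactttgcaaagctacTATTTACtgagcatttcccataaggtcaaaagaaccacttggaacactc
LOC105372089 (chr18:44664659-44664908, minus strand): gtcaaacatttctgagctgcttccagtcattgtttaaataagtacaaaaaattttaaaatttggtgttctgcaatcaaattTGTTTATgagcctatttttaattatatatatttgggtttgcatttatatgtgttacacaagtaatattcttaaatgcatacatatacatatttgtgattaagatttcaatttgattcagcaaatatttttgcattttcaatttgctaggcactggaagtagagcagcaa

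ZBTB20 encodes a zinc finger repressor that acts in liver and brain, SEM1 a small subunit of the proteasome lid, and the other 3 are long non-coding RNAs. In LOC105372089 the core, centred 166 bases before the gene start, lay 65 and 13 bp from the summits of full-length replicates 1 and 2 and 52 and 18 bp from those of CTD deletion replicates 1 and 2. In LOC112267888 the distances were 32, 117, 52 and 28 bp in the same order, and its capitals run into an AACAATG match. The core of LINC01992 was 2 bp from the summit of full-length replicate 2 and 221, 166 and 186 bp from the other summits in that order. The cores of ZBTB20 (190 to 329 bp) and SEM1 (86 to 400 bp) lay farther out. The authors' fold enrichment, a ratio over the local background of the same library, was 4.31, 6.48, 5.79 and 3.70 at ZBTB20 and 4.63, 9.20, 3.90 and 7.29 at SEM1 in the same order of libraries. The peak at SEM1 in CTD deletion replicate 2 was at percentile 96.9 of its list.

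JCHAIN, which encodes the joining chain of polymeric immunoglobulins, is shown for the AP-1 letters instead, and MIR582 because its whole hairpin lay inside a member. In JCHAIN the capitals mark TGACTCA on the other strand, 102, 21, 102 and 81 bp from the summits of full-length replicates 1 and 2 and CTD deletion replicates 1 and 2. In the miR-582 arms they mark the seed, bases 2 to 8.
JCHAIN (chr4:70666509-70666758, minus strand): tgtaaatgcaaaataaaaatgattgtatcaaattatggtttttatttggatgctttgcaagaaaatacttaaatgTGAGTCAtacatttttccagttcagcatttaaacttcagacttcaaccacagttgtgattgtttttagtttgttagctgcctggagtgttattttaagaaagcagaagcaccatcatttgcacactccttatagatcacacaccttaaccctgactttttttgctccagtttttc
hsa-miR-582-5p: uUACAGUUguucaaccaguuacu
hsa-miR-582-3p: uAACUGGUugaacaacugaacc

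The member over MIR582 (chr5:59703458-59704127) had fold enrichments of 4.42 and 6.14 with full-length FOXA2 and 5.56 and 4.65 with the CTD deletion. Hairpins or mature miRNAs of MIR1273C (chr6:154852659-154853540) and MIR6774 (chr16:85917802-85918678) also lay in members.

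The count of members moved with how absence and presence were read. In all 4 construct lists together 28734 regions had a peak, and 11988 of these had none in either library labelled wild type of the FOXA2 set. An entry in the SOX2 set then removed 5883 of the 11988, or 49.1%, and left the 6105. The wild type of the SOX2 set by itself had an entry at 35.0% of the 11988, SOX2 at 42.6% and the fusion at 46.2%. The lists labelled wild type of the FOXA2 set were short, with 19862 and 25088 peaks against 57946 to 161136 in the construct lists, so that a region without a wild-type peak can hold signal under a threshold. With a common −log10 p threshold of 5.43 in the 6 lists, 2026 regions had the members' pattern, 2022 of them overlapping a member. With the strongest 19862 peaks of each list there were 846, of which 760 overlapped a member. When peaks had to cover 50% of the merged region there were 2865, and without the SOX2 set 11844.

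Of the 13809 regions with a peak in both full-length lists and in none of the other 5, 44.2% were members. Of the 10292 regions with a peak in both CTD deletion lists under the same condition, 59.3% were members. Another 3127 regions were full-length-only, with a peak in both full-length lists and no CTD deletion peak, and 1851 were CTD-deletion-only. More regions than either, 5897, had a peak only in full-length replicate 1 and CTD deletion replicate 2, the longest construct lists. The other mixed pairs gave 1658, 869 and 341, so the counts of 3127 and 1851 do not by themselves mark a construct. Just outside the rule, 6913 regions had a peak in 3 of the 4 construct lists. Most of these, 3636, missed only CTD deletion replicate 1, 1824 missed full-length replicate 2, 941 CTD deletion replicate 2 and 512 full-length replicate 1. The shorter list of each construct was the one missed more often. Leaving out CTD deletion replicate 1 gave 9732 regions; leaving out any other library of the FOXA2 set gave 6120 to 7854.

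**Figure D1:**
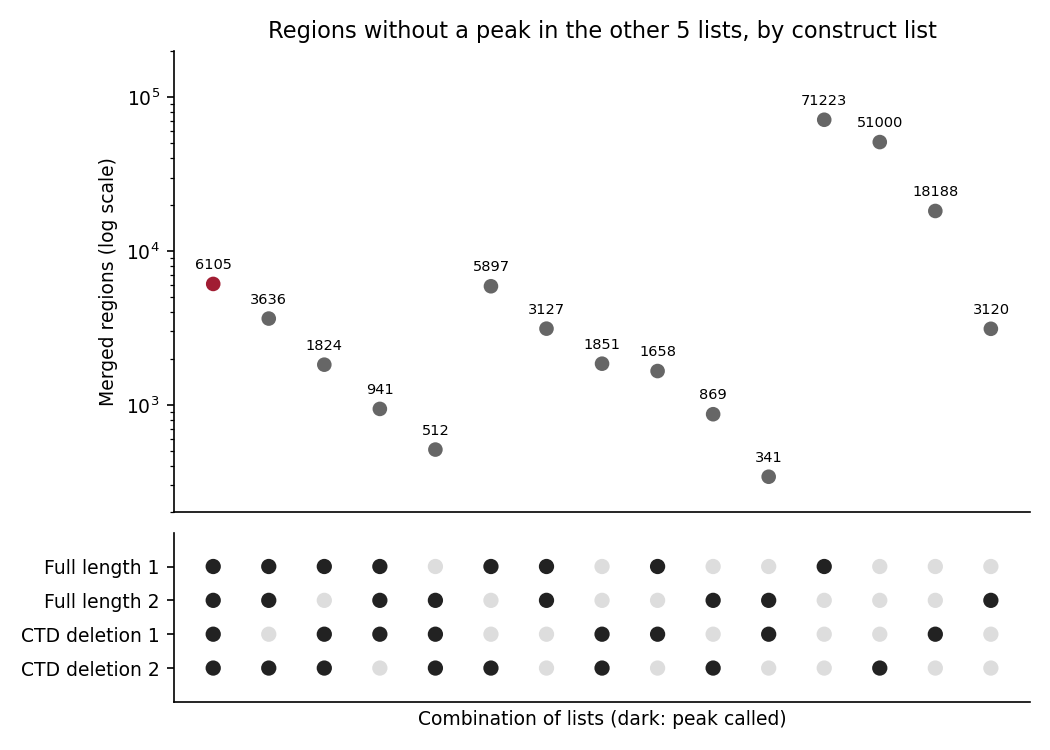
Number of merged regions (vertical axis, log scale) for each combination of construct lists with a peak (dark dots), among regions without a peak in the other 5 lists. The 6105 members, in red, outnumber every combination of 3 or 2 lists, and regions of a single list reach 71223.

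Peaks of members were moderate in height. The median fold enrichment was 4.76 (quartiles 3.88 to 5.65) and 7.50 (6.14 to 9.55) in full-length replicates 1 and 2. It was 4.34 (3.60 to 5.20) and 4.59 (3.80 to 5.44) in the replicates of the CTD deletion, in that order. Each list is scaled to its own background, and full-length replicate 2 was called with another threshold, so the heights are not compared between libraries. Within its own list the median member stood at percentile 86.6, 63.5, 68.1 and 80.2 of −log10 p in the same order. Regions called in all 9 lists stood higher, at 92.8, 83.9, 88.0 and 94.1. Regions of 3 construct lists stood lower, at 73.4, 40.8, 55.3 and 62.1, in the lists that called them. Most members, 5300 or 86.8%, held a single peak of each construct library. The ranks of members by −log10 p correlated more within a construct, with a Spearman rho of 0.45 between the full-length libraries and 0.40 between the CTD deletion libraries, than between constructs, where the 4 pairs gave 0.30 to 0.36. Over all 28734 regions of the 4 construct lists the order was the same, with 0.54 and 0.52 within a construct and 0.40 to 0.45 between constructs. It is therefore not particular to members. The correlations of members are across 6105 regions that share the same 4 libraries and are a description.

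A peak call in both CTD deletion lists does not say that the region was as open as with the full-length protein. Ranks by −log10 p among the 28734 regions of all 4 construct lists put both constructs on 1 scale. The rule did not use the ranks themselves but did use the presence of these peaks, so the comparison is a description. The median member stood at percentile 48.2 in full-length replicate 1 and 43.7 in replicate 2, and at 38.6 and 35.3 in the CTD deletion replicates. Both full-length libraries were thus above both CTD deletion libraries, at 45.9 ± 3.17 (mean ± SD, n = 2) and 36.9 ± 2.28 (n = 2), which is a difference of 8.99 percentile points. The exact two-sided permutation p was 0.333, the smallest that 2 libraries against 2 allow, so it cannot say whether the constructs differ. Region by region, both full-length ranks were above both CTD deletion ranks in 25.9% of members, against 19.3% of all 28734 regions, and below both in 13.7%, against 20.7%. Full-length replicate 2 was called differently from the other 3, as described below. With full-length replicate 1 alone against both CTD deletion libraries, which share a calling pattern, its rank was above both in 43.4% of members (34.5% of all regions) and below both in 27.6% (36.3%).

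That ordering was found in members and not in the regions next to them in the rule. The 5883 regions with the same pattern in the FOXA2 set but an entry in the SOX2 set had median percentiles of 34.1 and 28.3 with full length and 32.0 and 35.3 with the CTD deletion, so the groups overlapped and the difference was −2.50 points. Regions called in both wild types of the FOXA2 set had a difference of −2.86 points (67.3 and 71.1 against 71.1 and 73.0). Ranks of all classes add up to the same total in each library, so a higher rank of members is a lower rank of others. Members over 1 kb from either end of any gene (5757 regions) had a difference of 9.61 points and those within 1 kb (348 regions) one of 8.43. In the same split the 5883 regions had differences of −4.38 points (4250 regions) and 1.55 points (1633 regions). Without the SOX2 set in the rule the difference of members was −0.035 points. It was 5.04 when ranked by fold enrichment, with values of either sign within the combined SD of the groups (−3.35 to 13.4). By −log10 p the difference was 14.4 without CTD deletion replicate 1 and 5.21 without CTD deletion replicate 2. Tied values of −log10 p make these medians move in steps. CTD deletion replicate 2 stood at 35.3 in members, in the 5883 regions and in the 11988 regions before the SOX2 set was applied. Full-length replicate 2 stood at 43.7, 28.3 and 33.5 in the same order. No test of the difference between these classes of regions was made.

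**Figure D2:**
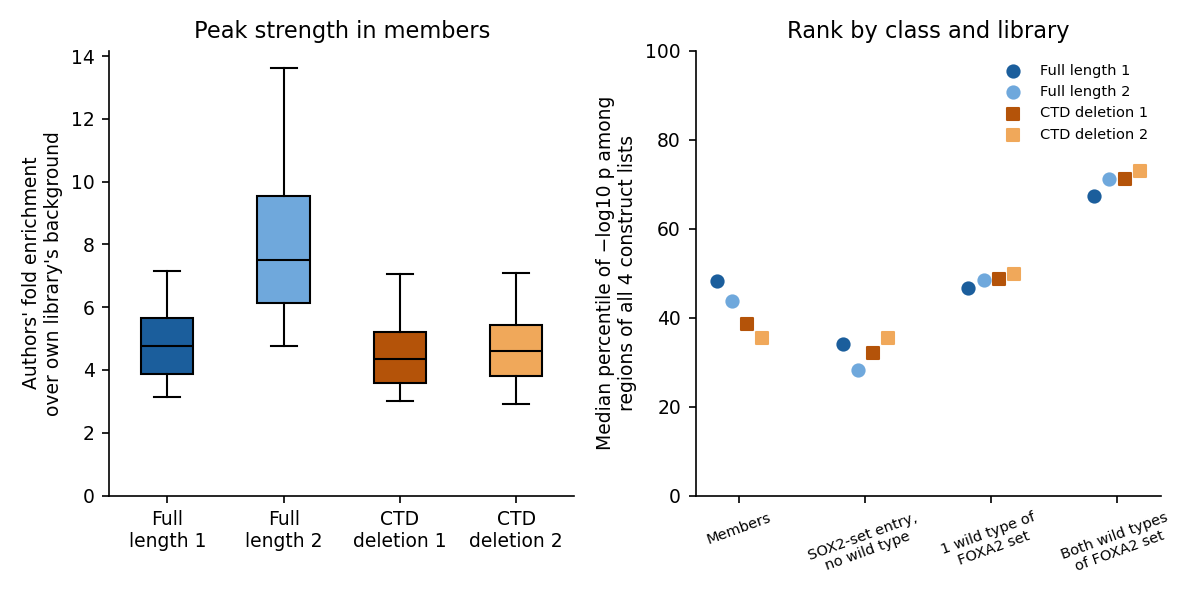
Left, the authors' fold enrichment of members in each construct library (line: median; box: quartiles; whiskers: 5th and 95th percentile). Right, the median percentile of −log10 p among the 28734 regions of all 4 construct lists, by class of region, with 1 point per library. The full-length points of members (48.2 and 43.7) lie above the CTD deletion points (38.6 and 35.3), and in the other classes the constructs overlap or lie the other way.

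Members made up a larger share of decile 9 and of the strongest decile of each list than of the weakest decile. The rule needs a call in all 4 construct lists, which by itself favours stronger peaks, so these shares are a description. Of the peaks in the weakest decile of a list by −log10 p, 0.389% and 4.45% lay in members in full-length replicates 1 and 2, and 1.95% and 0.726% in the CTD deletion replicates. In decile 9 the shares were, in that order, 9.55%, 17.1%, 14.3% and 10.2%, and in the strongest decile 15.1%, 13.1%, 12.7% and 9.95%. Among the 1000 strongest peaks they were lower than in the strongest decile, at 12.6%, 6.60%, 10.6% and 3.40%. Regions of all 9 lists held 59.0%, 62.9%, 68.8% and 78.6% of those 1000 peaks. In the strongest decile the share in regions of all 9 lists was 32.4%, 50.6%, 47.8% and 39.1%. At both cuts it was above the share in members in each of the 4 libraries.

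**Figure D3:**
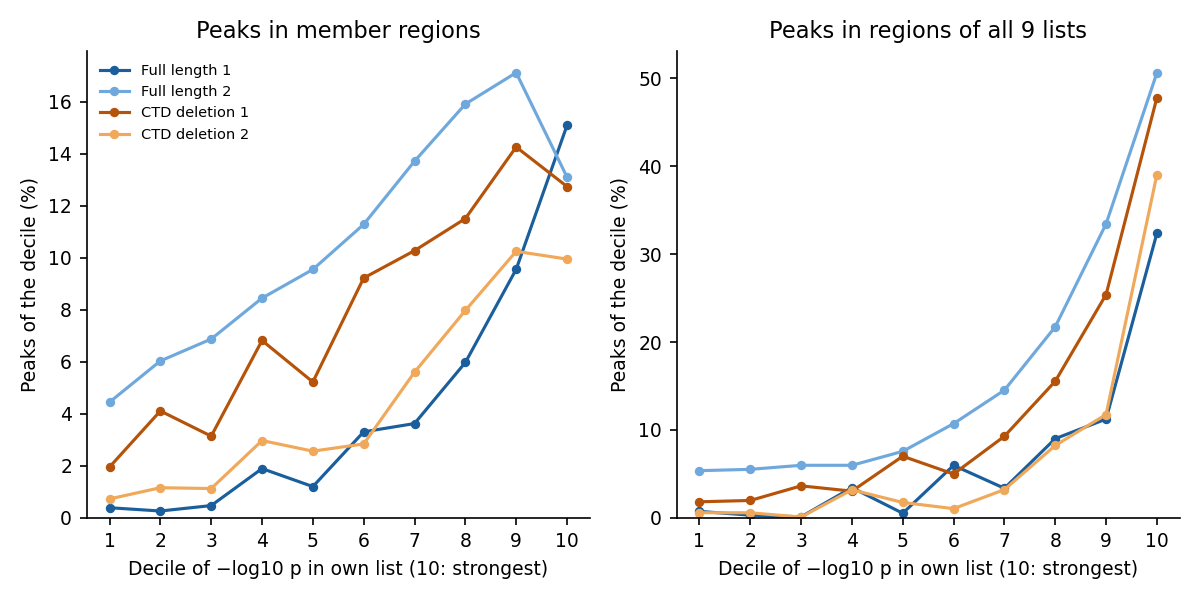
Share of peaks that lie in members (left) and in regions of all 9 lists (right), by decile of −log10 p within each construct list (10: strongest; tied values make the deciles unequal). The share in members is 9.55% to 17.1% in decile 9 and 9.95% to 15.1% in decile 10.

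Members were 728 bp wide at the median (quartiles 642 to 844). Width depends on the lists merged: full-length-only regions had a median of 501 bp, CTD-deletion-only regions 463 bp and regions of all 9 lists 1331 bp. Inside a member the summits of the 4 libraries seldom coincided. The distance from the lowest to the highest of the 4 summits had a median of 281 bp and was at most 100 bp in 265 members, 4.34%. In full-length replicate 2 the summit was at a median of 58 bp from the midpoint of the region and within 100 bp of it in 72.4% of members. In full-length replicate 1 and CTD deletion replicates 1 and 2 the medians were 134, 125.5 and 128.5 bp, and 35.6% to 38.3% of summits were within 100 bp. The summits of these 3 libraries fell on both shoulders of the region about equally, with 51.0% to 53.2% on the side of lower coordinates.

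The lists were not called alike. Full-length replicate 2 and the library labelled wild type replicate 2 had no mitochondrial peak and lowest −log10 p values of 5.22 and 5.43, whereas the other 4 lists of the FOXA2 set each had 2 mitochondrial peaks and lowest values of 2.01 to 3.44. In the 8759 regions called in all 6 of these lists, summits lay at medians of 126 and 130 bp from the midpoint in the former pair and 146 to 154 bp in the other 4. In members the median distance between summits was 145 bp for the full-length pair, 127 bp for the CTD deletion pair and 133 to 141 bp for the 4 pairs of different constructs. Over all 28734 regions of the 4 construct lists it was 150, 121 and 133 to 139 bp in the same order. Such distances are therefore not particular to members. The construct and the calling pattern of the list cannot be told apart for full-length replicate 2.

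**Figure D4:**
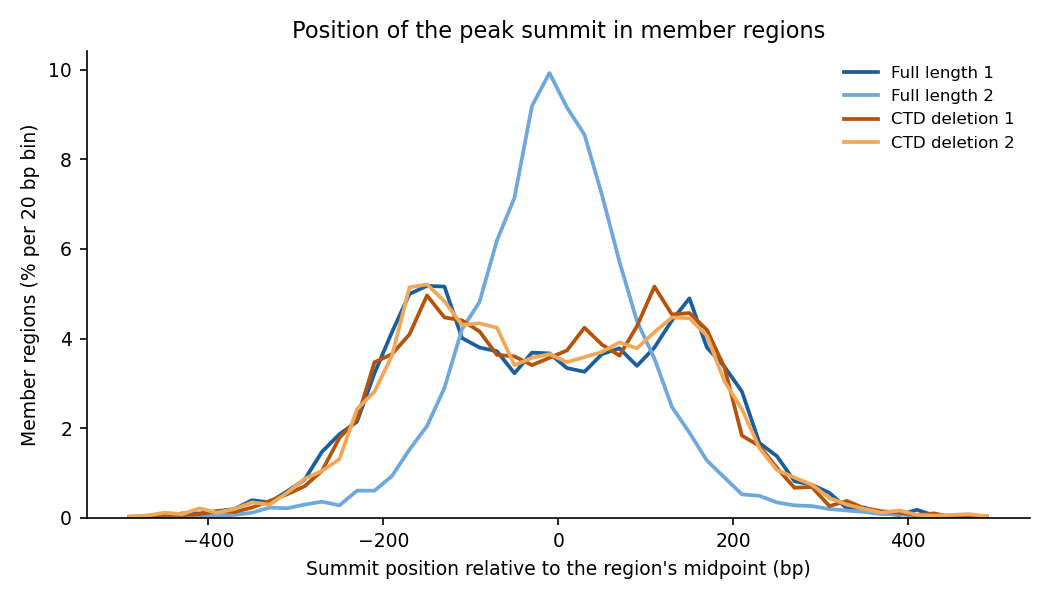
Position of the strongest summit of each construct library relative to the midpoint of the member region (bp, 20 bp bins, percent of the 6105 members). Full-length replicate 2 has a single central mode, with 72.4% within 100 bp of the midpoint, and the other 3 libraries have a shoulder on each side.

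Members, as chosen by this rule, lay away from promoters. RefSeq gene starts were within 1 kb of 71 of the 5734 members on chromosomes with listed starts, 1.24% (95% Wilson interval 0.983% to 1.56%), against 5.14% of all merged regions and 54.4% of regions called in all 9 lists. Full-length-only regions had 1.58% (1.18% to 2.10%) and CTD-deletion-only regions 1.84% (1.30% to 2.58%), with intervals that overlap that of members. Within 5 kb the members had 5.82%, full-length-only regions 8.43% and CTD-deletion-only regions 6.14%. The median distance of a member to a gene start was 53495.5 bp, and 226 members (3.94%) were over 500 kb away, against 8.67% of CTD-deletion-only regions. Intervals cover counting error only, since regions are not replicates. The start table has no entry on chromosome 8 and not every gene elsewhere. With either end of any gene in place of the start, 5.70% of members, 10.4% of all regions and 62.0% of regions of all 9 lists were within 1 kb. Had entries of the SOX2 set been ignored, 10.6% of the regions would have been within 1 kb of a start, above the 5.14% of all merged regions of the 9 lists. The low share of members thus depends on the lists that the rule excludes.

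Genes covered 60.8% of members (59.5% to 62.0%), close to the 58.5% of all merged regions and below the 80.8% of regions of all 9 lists. CTD-deletion-only regions had 55.5% (53.3% to 57.8%). A region of all 9 lists stood within 50 kb of 23.7% of members, against 24.7% of all regions. The nearest peak of a wild-type list was at a median of 10735 bp, while 15.1% of members had a peak of one of the other 5 lists within 1 kb without touching it. When members were split into 5 groups of 1221 by their lowest percentile over the 4 lists, the share in genes stayed between 59.5% and 62.1% and the median distance to a gene start between 51658 and 55539 bp, while the median width rose from 675 bp in the weakest group to 807 bp in the strongest.

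**Figure D5:**
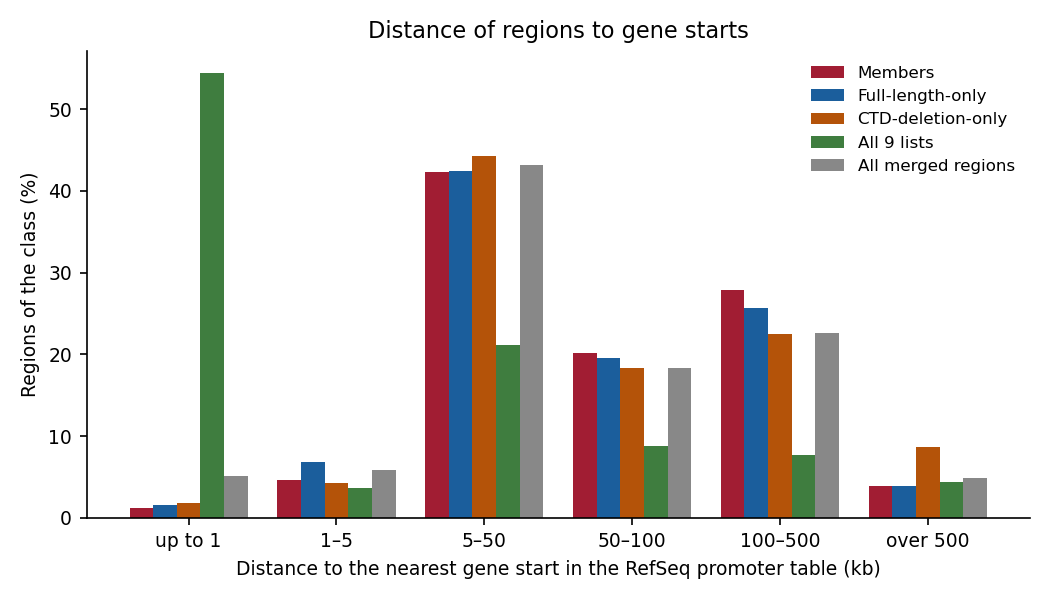
Distance to the nearest gene start in the RefSeq promoter table (kb) for members and other classes of regions, as percent of the class. Members have 1.24% within 1 kb, where regions of all 9 lists have 54.4%, and 42.3% between 5 and 50 kb.

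Members took up 1.97% of the merged regions of chromosome 4, 1.92% of chromosome 6 and 1.72% of chromosome 2, and 0.976% of chromosome 20, 0.963% of chromosome 22 and 0.541% of chromosome 19. U2OS is aneuploid, and the copy number of the chromosomes was not analysed here. Another member lay within 50 kb of 23.3% of members (22.3% to 24.4%), against 19.6% of all merged regions, 24.7% of full-length-only regions and 18.1% of CTD-deletion-only regions (16.4% to 19.9%). Chained at that distance, 4681 members stood alone, 567 chains held 2, 76 held 3, 13 held 4 and 2 held 5. The chains of 5 were at chr6:120177857-120288831 and chr18:1568575-1689792, neither over a protein-coding gene. Along the chromosome 6 chain the fold enrichment ran from 3.31 to 4.42 and from 6.14 to 8.52 in full-length replicates 1 and 2, and from 3.25 to 4.77 and 3.48 to 6.32 in CTD deletion replicates 1 and 2. A chain of 4 lay within ERBB4 (chr2:212309117-212356252).

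Members were ranked by the lowest of their 4 percentiles. Of the top 10, those in ODAD3 and MOBP overlapped a protein-coding gene, as did 45.8% of all members. The member in the non-coding LINC01288 overlapped a gene of another kind, and the rest of the 10 overlapped none. Among the strongest 1221 members, 59.95% overlapped a gene of any kind. The first, at chr15:77077083-77078136, was 5974 bp from TSPAN3, a tetraspanin gene. Its fold enrichment was 9.94 and 22.2 with full-length FOXA2 and 10.3 and 7.88 with the CTD deletion, and its lowest percentile was 99.4. Peaks of another list came as close as 266 bp to it. The second, at chr7:43004219-43005082, was 48090 bp from any gene and had 8.40 and 22.5 with full length and 8.50 and 9.09 with the CTD deletion. The third, at chr19:11424426-11425911 in ODAD3, a docking subunit of the outer dynein arms of cilia, had 7.40 and 22.5 against 7.06 and 7.75.

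Number 5, at chr3:39468489-39469447, lay 809 bp from the start of MOBP, a gene of the myelin of oligodendrocytes. It had fold enrichments of 7.93 and 20.1 with full length and 11.3 and 8.78 with the CTD deletion, and a peak of another list 257 bp away. Near CNKSR3, a scaffold gene of kinase signalling, the member at chr6:154524524-154525845 had 6.69 and 21.5 against 10.4 and 8.11. The other 5 were at chr8:34788116-34789381 in the non-coding LINC01288, chr12:81927130-81928903, chrX:62964282-62965538, chr10:114998171-114998924 and chr2:123955328-123956455. Over the 10, the fold enrichment was 6.69 to 11.3 and 18.1 to 31.4 in full-length replicates 1 and 2, and 7.06 to 11.3 and 7.75 to 10.3 in CTD deletion replicates 1 and 2. In 3 of the 10, a peak of one of the other 5 lists lay within 300 bp.

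At the edge of the rule, the 3 weakest members were just above the threshold of 1 list. They were at chr3:140257417-140258069 in CLSTN2, chr4:44607441-44607980 and chr6:154518890-154519421, with lowest percentiles of 0.0774, 0.123 and 0.124. The weakest peak of the first was in CTD deletion replicate 1, with a fold enrichment of 2.17, while its other peaks had 4.00, 5.11 and 4.26. The strongest region that missed 1 list was at chr8:20864658-20865327, with 12.1 and 41.6 in the full-length libraries, 9.76 in CTD deletion replicate 2 and no peak in CTD deletion replicate 1. The next were at chr1:219960275-219961110, 1177 bp from SLC30A10, a manganese exporter of liver and brain, also without a peak in CTD deletion replicate 1, and at chr12:45338876-45339837 in ANO6, without one in full-length replicate 1. A missing call therefore also occurred at regions that were strong in the other 3 lists.

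The genes with most members were long. Of 19974 protein-coding genes, 1991 or 9.97% held a member, and these had a median length of 148 kb against 20.4 kb for the rest. Among the 314 genes of 500 kb or more, 242 (77.1%) held one. PTPRD, a receptor tyrosine phosphatase of 2299 kb, held 11, and ERBB4, a receptor of the epidermal growth factor family, and LINGO2, a leucine-rich repeat membrane protein, held 10 each. CCSER1, EYS and DLG2 held 8 each, and SOX5, CSMD3, DPP10 and PCDH15 held 7 each. EYS is a photoreceptor protein, DLG2 a postsynaptic scaffold, SOX5 a transcription factor of cartilage and neurons, DPP10 a potassium channel partner and PCDH15 a cadherin of the inner ear.

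Read against the regions that these genes hold, the members of ERBB4 were 6.02% of its 166 merged regions, those of PTPRD 4.74% of 232 and those of DLG2 2.37% of 338, against 1.53% over the genome. The genes were picked for holding most members, which by itself favours a share above that of the genome. In the 10 members of ERBB4 the fold enrichment was 2.76 to 5.93 and 5.45 to 12.6 in full-length replicates 1 and 2, and 3.47 to 6.56 and 2.92 to 7.14 in CTD deletion replicates 1 and 2. In the 11 of PTPRD it was 3.31 to 6.63, 5.45 to 12.6, 3.04 to 6.50 and 2.92 to 7.60 in the same order. PTPRD, ERBB4 and CCSER1 held between 1 and 3 full-length-only regions and 0 CTD-deletion-only regions each. In the same order, CSMD3 held 4 and 0, and PCDH15 7 and 0. DLG2 and SOX5 held 4 and 1 each, and DPP10 1 and 1. EYS held 8 and 4, and LINGO2 4 and 4. Over the genome there were 3127 of the former kind and 1851 of the latter. Whether any of these genes departed from that balance was not tested.

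Genes of the endodermal lists had members nearby in counts close to those of all genes. A gene counted if a member lay inside it or within 50 kb of its start, which held for 19.3% of the 15812 protein-coding genes with a listed start. Of the liver plasma protein genes 3 of 14 counted (TF, APOH and CPS1), of the hepatic and endodermal transcription factors 4 of 14 (ONECUT2, NR1H4, NR5A2 and EOMES), of the foregut, pancreas and lung genes 1 of 7 (NKX2-1), of the hormone-dependent FOXA genes 2 of 5 (PGR and XBP1) and of the osteoblast and mesenchymal genes 4 of 11 (RUNX2, FN1, ZEB1 and ZEB2). Taken within 50 kb of either end of the gene, which covers the full lists, the counts were 4 of 22, 5 of 21, 3 of 15, 2 of 10 and 5 of 16, against 21.9% of 19974 genes. In lists this short, a share of this size differs from the background by a few genes.

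At NKX2-1, a transcription factor of lung and thyroid, the member at chr14:36511395-36512134 was 7422 bp from the gene start. It had fold enrichments of 5.52 and 10.9 with full-length FOXA2 and 7.38 and 5.85 with the CTD deletion, and each peak was at or above percentile 88.6 of its list, the highest such floor among the listed genes. At ZEB1, a repressor of epithelial genes, the values were 8.19 and 8.86 with full length and 4.45 and 5.83 with the CTD deletion (chr10:31294445-31295179). NR1H4, the bile acid receptor FXR, had 2 members, 1 inside the gene (3.31 and 6.82 against 3.28 and 3.51) and 1 outside it, 33360 bp from its start (4.42 and 8.18 against 3.02 and 5.0). EOMES, a T-box factor of early endoderm, had 2 as well, at 4352 and 27799 bp from its start.

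NR5A2, a nuclear receptor of liver and pancreas, had a member 5299 bp from its start, with 4.76 and 6.82 against 3.66 and 5.21. At TF, which encodes transferrin, the values were 4.97 and 7.84 against 5.93 and 5.17. At XBP1, a factor of the secretory pathway, they were 4.65 and 12.6 against 2.73 and 5.98, with the peak of CTD deletion replicate 1 at percentile 8.40 of its list. RUNX2, the master regulator of osteoblasts, held a member in the gene body with 4.33 and 8.86 against 4.80 and 3.76. CPS1, a urea cycle enzyme, held one with 4.95 and 4.77 against 3.90 and 4.21. Of the listed genes given here, XBP1 had the largest gap between the CTD deletion replicates.

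As a check of the labels, each of the 6 lists of the FOXA2 set had a peak inside the FOXA2 gene, the libraries labelled wild type included (fold enrichment 5.19 and 14.7), against 5.76 and 44.3 with full length and 6.94 and 7.07 with the CTD deletion. Since a construct and the gene itself can share sequence, these peaks do not check which library carried a construct. In the SOX2 set, the fusion had an entry at chr20:22581797-22582528, overlapping the peaks of both libraries labelled wild type of the FOXA2 set. The wild type and SOX2 of that set had entries only at chr20:22583822-22585189 and chr20:22584023-22585299, where the fusion had one too. Whether the libraries labelled wild type of the FOXA2 set carried a construct was not tested. Peaks within 1 kb of either end of 10 mesenchymal marker genes were found at 4 to 8 genes per list, with TWIST1 and PRRX1 at 0 in all lists. Of the hepatocyte markers, ALB had none in any list, while APOA1 had one in all 4 FOXA2 construct lists and all 3 lists of the SOX2 set and in neither list labelled wild type of the FOXA2 set. Of the epithelial markers, KRT8 and KRT18 had one in all 9 lists, and CDH1 and EPCAM had none in the 6 lists of the FOXA2 set. Of the blood markers, CD79A had none, and PTPRC had one in both full-length lists and in no other. The neural markers SOX1 and NES gave 0 of 2 genes in the lists labelled wild type of the FOXA2 set and 1 or 2 in the other 7 lists. What part such marker peaks have in the counts of members was not tested. Read depth is unknown, and in bulk ATAC-seq a region open in more cells and a region more open in each cell cannot be told apart.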

How the data were processed

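ATAC-seq had been done on 12 U2OS samples. Per the submitters' processing notes, FastQC 0.10.1, Trim Galore, Bowtie2 2.4.4, SAMtools 0.1.18, MACS2 and deepTools 2.4.1 were used with build hg38; their settings are not given in the sources used here. The authors' deposited lists give each peak a fold enrichment (a ratio over background), a −log10 p, a −log10 q, a score and a summit position; the score was not used. The 3 lists of the SOX2 set were deposited with entries of any IDR. Peaks on chromosomes 1 to 22 and X were merged at 1 bp overlap, and the strongest peak of a list stood for it in a region. Percentiles are ranks of −log10 p. Shares have 95% Wilson intervals. Python 3.11.15, pandas 2.3.3, numpy 2.4.6 and scipy 1.17.1 were used, and the merging was tested on simulated data. A motif search around summits was planned, but no genome sequence was used here, so RefSeq promoter windows were searched instead. Regions named are the 10 members with the highest lowest percentile, the 3 weakest, the 3 strongest regions of 3 lists, the 10 genes with most members (PCDH15 tied with the last, and 1 is not reported here) and each listed gene with a member inside it or within 50 kb of its start. The members, lists and rules were chosen with earlier results of these data known. SLC30A10 and ANO6 are named as neighbours of such regions.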

Additional observations from a re-analysis of the deposited data

Results flagged for a closer look

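Outside chromosomes 1 to 22 and X, the lists held peaks on unplaced, unlocalised and alternate sequences that none of the comparisons used. Among the 7186 merged regions there, 53 had a peak in all 4 FOXA2 construct lists and in none of the other 5. The opposite pattern, a peak in both lists labelled wild type of the FOXA2 set and in none of the other 7, was found in 0 regions. The 53 are 0.738% of the regions there, below the 1.53% that members make up of the analysed regions. They are given because they stand in data that the comparisons did not use; the lists labelled wild type are much shorter than the construct lists, so the count of 0 is no matched control. How such sequences were treated in alignment is not given in the sources used here.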

How the results depend on the processing

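The count of 6105 members was 2865 with peaks covering at least 50% of the region, 2026 with a common −log10 p threshold, 846 with equal numbers of peaks and 11844 without the SOX2 set, and 6120 to 9732 when 1 library was left out. The share of members within 1 kb of a gene start, 1.24%, was 1.56% with windows of 250 bp around summits, 1.57% with SOX2-set entries at an IDR of at most 0.05, 10.6% without the SOX2 set, 0.610% for protein-coding starts, 5.82% within 5 kb, 48.1% within 50 kb and 5.70% with either end of any gene, and 1.12% to 1.42% when 1 library was left out. The share in a gene was 56.7% with equal numbers of peaks, 64.0% without the SOX2 set, and 59.8% to 60.7% when 1 library was left out. The median width of 728 bp was 762 with 50% coverage, 800 with summit windows, 786.5 with the common threshold and 828.5 with equal numbers, and 638 to 735 when 1 library was left out. The mean over the 6 pairs of libraries of the median summit distance, 136 bp, was 123, 122.5 and 115 bp with 50% coverage, the common threshold and equal numbers, and 130.5 to 142 when 1 library was left out. The difference in median percentile of 8.99 points (full length minus CTD deletion) turned to −0.035 without the SOX2 set and was 5.04 ranked by fold enrichment and 5.21 to 14.4 when 1 library was left out; the cause was not tested. The analysis of either gene end, of the replicate block, of ranks, of gene lists by gene ends and of promoter motifs was chosen after seeing the data. The share of promoter windows with a forkhead core was 0% with the common threshold and with equal numbers, 20% (9 of 45 windows) with SOX2-set entries at an IDR of at most 0.05, and 8.89% without the SOX2 set.

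With a replicate block, which pairs same-numbered libraries, the difference was again 8.99 points (9.62 and 8.36 in the pairs), with an exact two-sided p of 0.5, the smallest that 2 pairs allow. The labels do not say that a number marks a shared batch, and deviations of same-numbered libraries had a correlation of −0.024 over the 28734 regions. The counts and shares come from no test. The motif search around summits, its window sizes of 50 and 250 bp and its other core letters were not run, since no genome sequence was used. Read depth is unknown, and the lists differ in threshold: absence from a list is absence of a call. The SOX2 set has 1 list per group and no spread between replicates.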
